A study of Rattus norvegicus with 10 samples.

Results

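Fatty acid oxidation in the liver was followed through 35 listed genes: the nuclear receptor Ppara, 12 peroxisomal genes, 13 mitochondrial genes and 9 genes that activate, bind, store, release or spare acyl-CoA and its fatty acids. The rule that sets the list uses gene names and roles and no measured value, though the list was proposed with results of these data known, and each gene was read from its brightest probe set by the mean over all 10 arrays. Of the 35 genes, 33 had a probe set of their own among the 14217 genes followed in the series. Acaa1a and Acaa1b were measured only by a probe set that they share, and are described apart from the 33.

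The samples were livers of female Harlan Sprague-Dawley rats on whole-genome 3' expression arrays. The 5 vehicle samples came from rats given corn oil by gavage (0 mg per kg). The 5 dosed samples came from rats given indole-3-carbinol at 300 mg per kg in corn oil by gavage. Both groups were treated on 5 days per week for 13 weeks per the labels. The series text speaks of a longer toxicology study, so the length of dosing rests on the sample labels. Indole-3-carbinol is a compound of cruciferous vegetables whose acid condensation products in the stomach bind the aryl hydrocarbon receptor. The labels give no ages and no animal numbers, so p-values reflect only how much these samples vary, which may be technical.

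Fatty acids are broken down by beta-oxidation, which removes acetyl units in repeated cycles of dehydrogenation, hydration, a further dehydrogenation and thiolysis. In the liver, peroxisomes shorten very long and branched chains, and mitochondria oxidise most other fatty acids for energy and ketone bodies, with the long chains entering through the carnitine shuttle. PPAR alpha, the product of Ppara, is the receptor that fibrates and fatty acids activate, and in rodent liver it is known to raise most of the genes listed here. It binds with RXR to a direct repeat of AGGTCA with a single base between the units.

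The promoter sequences below are shown because the receptor's element, and the core GCGTG that the aryl hydrocarbon receptor binds, are the DNA motifs that this gene group and this compound are known for. They come from RefSeq on assembly GRCr8, in windows from 250 bases before to 50 after each listed start, and 29 of the 35 genes had a window. The exact repeat AGGTCANAGGTCA, searched on both strands, was in 0 of the 29 genes and in 0.0538% of all 33469 windows. With at most 1 mismatch it was in 2 genes, Fabp1 and Acadvl, against 0.439% of all windows, and with at most 2 mismatches in 6 genes, against 3.77%. A single AGGTCA unit, which the repeat also contains, was in 8 genes (27.6%) against 16.2% of all windows, and GCGTG in 14 genes (48.3%) against 29.7%. The windows compared were not matched for their content of G and C, of which GCGTG is largely made. That content ran from 40.7% (Acsl1) to 73.7% (Ppara) in the listed genes. Most of their windows were above the median of all windows, 51.7%. These are descriptions of letters in short windows, and a gene without a match may hold the element elsewhere.

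Capitals mark the repeat with 1 mismatch in Fabp1 (chr4:104749255-104749284, + strand) and Acadvl (chr10:55236706-55236735, - strand), and GCGTG or its reverse CACGC in Ppara (chr7:118712560-118712589, + strand) and Acadm (chr2:245542865-245542964, - strand). Where both strands match at once in Ppara, the matches overlap in CACGCGTG. The Fabp1, Acadvl and Ppara stretches lie before the listed start but inside the span of the RefSeq gene, and the Acadm stretch lies outside every gene of the table. Ppara and Acadm are among the 4 genes that passed the test described below. The windows of the others, Hadha and Pdk4, held 0 copies of GCGTG. Acadvl held 3 and Cpt2, Acads, Acox2 and Hsd17b4 held 2 each, and none of these passed.
Fabp1: acaatcacTGACCTATGGCCTatatttgag
Acadvl: gagacgggagaagAGGTCAGTGGTCAaggc
Ppara: gggcaCACGCtaggaagggcaCACGCGTGc
Acadm: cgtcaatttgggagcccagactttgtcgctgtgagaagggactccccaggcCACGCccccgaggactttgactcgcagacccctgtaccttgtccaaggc

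Hadha and Hadhb encode the alpha and beta subunits of the mitochondrial trifunctional protein and lie head to head on chromosome 6, with 243 bases between them (chr6:31907558-31907800). That whole stretch is shown, on the strand of Hadha, because the 2 genes differed in these data, as described further on. It holds 0 copies of AGGTCA, so nothing is in capitals.
between Hadhb and Hadha: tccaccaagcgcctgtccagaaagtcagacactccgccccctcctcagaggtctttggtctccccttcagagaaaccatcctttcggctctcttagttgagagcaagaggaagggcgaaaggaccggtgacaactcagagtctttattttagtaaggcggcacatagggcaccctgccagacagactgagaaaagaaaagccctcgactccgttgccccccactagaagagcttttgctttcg

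Of the 33 measured genes, Ppara and Pdk4 rose with dosing, Acadm and Hadha fell, and 29 did not pass the test. A gene is said to have risen or fallen where its adjusted p in limma, with Benjamini-Hochberg adjustment over 31042 probe sets, was under 0.05, and all differences are dosed minus vehicle on the log2 scale with their SE. The 4 called genes are 12.1% of the 33, beside 914 of 14217 genes in all (6.43%, of which 3.32% rose and 3.11% fell), and with so few genes the count says nothing particular to the list. By sign, 9 of the 33 were higher and 24 lower in the dosed rats, with a median difference of -0.07, while 51.4% of all genes were lower and their median difference was -0.0039. With the GAPDH covariate for RNA quality, described further on, the median difference of the 33 genes was -0.21, with 24 lower by sign, and that of all genes 0.01. Without the covariate the median size of the difference, whatever its sign, was 0.12 in the 33 genes and 0.09 over all genes. At an unadjusted p under 0.05, 6 of the 33 genes were higher and 4 lower, beside 1367 higher and 1451 lower of all 14217 genes. The unadjusted counts given further on are to be read beside these. In whole liver RNA, fewer cells of a type and less RNA per cell cannot be told apart.

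In 29 of the 33 genes the 95% interval of the difference lay inside 1.5-fold in either direction, beside 91.7% of all genes, and the intervals of Ppara, Pdk4, Vnn1 and Acot2 reached further. The dosed and vehicle arrays failed to overlap in Acadm and Hadha only, where all dosed arrays were lower, a pattern found in 4.07% of all genes (8.67% in either direction).

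An RNA quality measure moved with the groups. The difference between the 3' and 5' control probe sets of GAPDH, which grows where RNA is degraded, was 0.45 ± 0.12 (SD, n = 5) in vehicle and 0.23 ± 0.05 in dosed arrays, with no overlap (0.32 to 0.65 against 0.16 to 0.29, exact permutation test, two-sided, p = 0.00794, 0.0159 adjusted over 2 measures). The same difference in beta-actin was 1.59 ± 0.12 in vehicle and 1.40 ± 0.14 in dosed arrays. There the groups overlapped (1.45 to 1.74 against 1.17 to 1.53, same exact test, p = 0.0476, also 0.0476 adjusted). With the GAPDH measure as a covariate, 1.6% of all genes passed, and of the 33 only Acot2 did, as lower. The differences were less precise in that model (the SE of Pdk4 went from 0.17 to 0.28), and its values are given below for the genes described in most detail. Its differences ran from -0.53 (Ehhadh) to 0.26 (Acox2) in the peroxisomal group, with a median of -0.29, and from -0.42 (Eci1) to 0.20 (Cpt1a) in the mitochondrial group, with a median of -0.22. With the beta-actin difference as the covariate instead, only Hadha of the 33 passed, as lower (-0.35, adjusted p = 0.0343). The 2 models often differed. Beta-actin gave 0.63 for Vnn1, 0.41 for Ppara, 0.20 for Slc25a20, -0.06 for Decr2, -0.12 for Hadhb and -0.42 for Plin2. For the same genes GAPDH gave 0.05, 0.13, -0.09, -0.45, -0.30 and -0.15. The part of RNA quality in these results was not tested. Without vehicle replicate 5, the array with the largest GAPDH difference, 8.74% of all genes passed, and among the 33 genes Pdk4 rose and Ehhadh, Acadm and Hadha fell. By beta-actin that array had the smallest difference of the vehicle arrays (1.45).

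**Figure D1:**
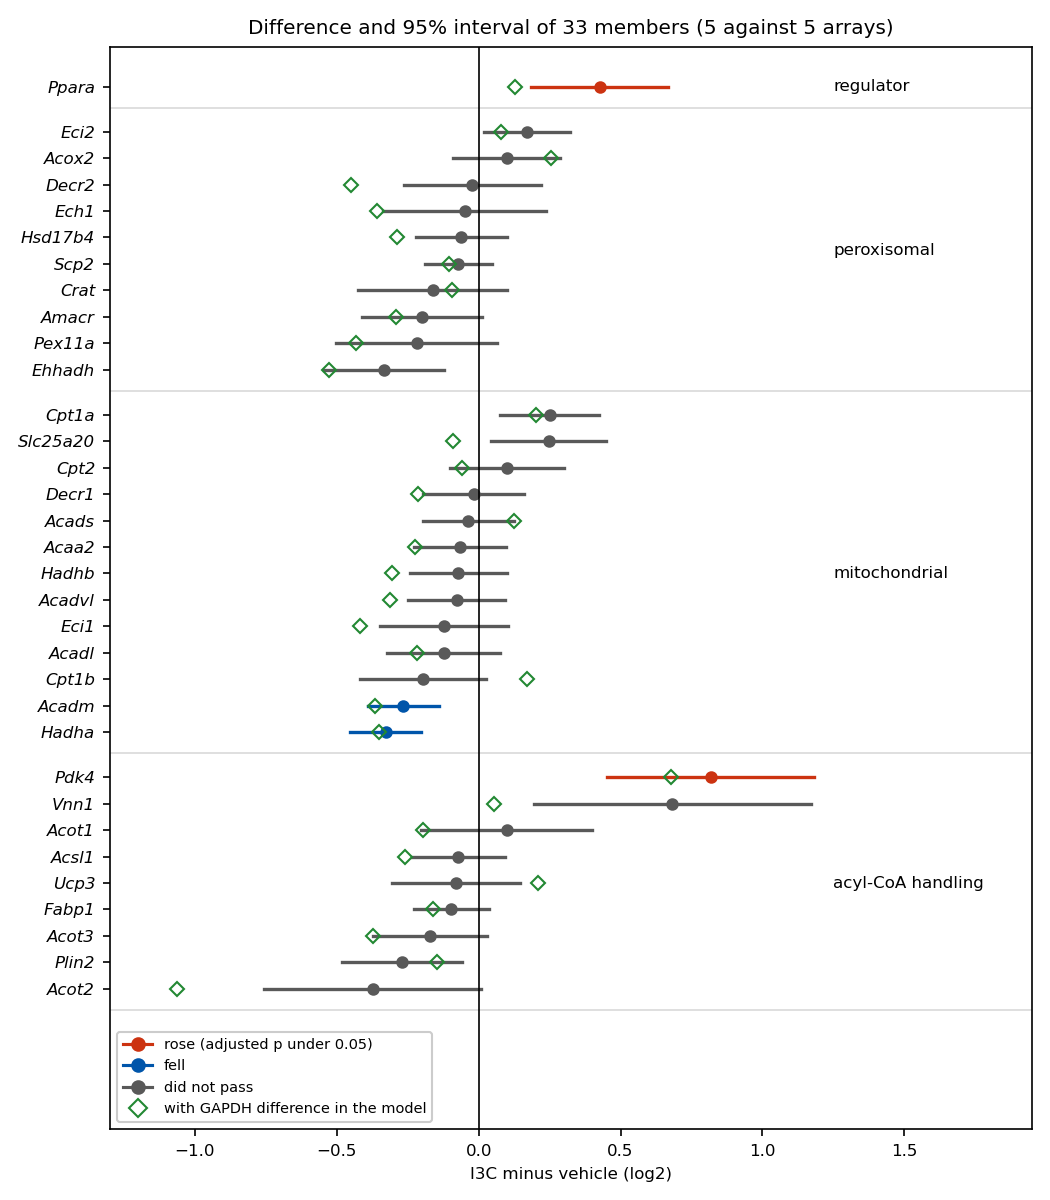
Difference between dosed and vehicle rats (log2, horizontal axis) for the 33 genes, grouped by role, as a point with its 95% interval from 5 against 5 arrays. Ppara and Pdk4 lie to the right of 0 and Acadm and Hadha to the left with adjusted p under 0.05, and the open diamonds give the difference with the GAPDH measure in the model, which is -1.06 for Acot2 and 0.13 for Ppara.

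Ppara, the receptor itself, had 1 probe set of middling brightness, at the 51.1 percentile. It was read at 6.37, 6.09, 6.18, 6.04 and 5.80 in vehicle replicates 1 to 5. In the dosed replicates 1 to 5 it was read at 6.71, 6.51, 6.28, 6.71 and 6.42. All 5 dosed values were above the vehicle median, but the lowest dosed array was below the highest vehicle array, so the groups overlapped. The mean rose from 6.10 ± 0.21 (SD, n = 5) to 6.53 ± 0.19, a difference of 0.43 ± 0.11 (1.34-fold, adjusted p = 0.0479). The call lies at the edge of the threshold. It was lost in 8 of the 10 fits that each left out 1 array, all but those without vehicle 1 or dosed 3, with adjusted p up to 0.119 (0.0604 without vehicle 5). The difference was 0.13 ± 0.15 with the GAPDH measure in the model (adjusted p = 0.723).

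Of the 10 measured peroxisomal genes 0 passed in limma (before adjustment, 1 was higher and 1 lower with p under 0.05), 2 were higher and 8 lower by sign, and their differences ran from -0.33 to 0.17. Ehhadh, the bifunctional enzyme that carries out the hydratase and dehydrogenase steps and is among the classical genes that peroxisome proliferators raise, had the most negative difference of this group. Its vehicle values were 12.20, 12.52, 12.21, 12.44 and 12.07, and its dosed values 12.15, 11.89, 12.06, 11.83 and 11.85. All dosed arrays were below the vehicle median and dosed replicate 1 lay within the vehicle range. The difference of -0.33 ± 0.10 did not pass (adjusted p = 0.0764). Without vehicle replicate 5 it was -0.39 and passed (adjusted p = 0.0268), and with the GAPDH measure it was -0.53 ± 0.15 (adjusted p = 0.129). It did not pass in the other 9 fits that left out 1 array (adjusted p up to 0.176). With the beta-actin measure the difference was -0.25 (adjusted p = 0.384).

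Acox2, the oxidase of branched chains and bile acid precursors, differed by 0.10 ± 0.09, and Hsd17b4, the other bifunctional enzyme, by -0.06 ± 0.07. Of the auxiliary enzymes for unsaturated chains, Ech1 differed by -0.05 ± 0.13 and Decr2 by -0.02 ± 0.11. With the GAPDH measure in the model Hsd17b4 differed by -0.29 ± 0.09, Ech1 by -0.36 ± 0.20 and Decr2 by -0.45 ± 0.10 (adjusted p = 0.175, 0.415 and 0.0672). Eci2, an enoyl-CoA isomerase, was higher by 0.17 ± 0.07 (adjusted p = 0.242), with all 5 dosed arrays above the vehicle median, whereas a probe set that it shares with Eci3 gave -0.10 ± 0.10. Amacr, the racemase that prepares branched chains, differed by -0.20 ± 0.10, and Pex11a, a peroxisome division factor, by -0.22 ± 0.13. Crat, which forms acylcarnitines, differed by -0.16 ± 0.12 and Scp2, a thiolase and lipid carrier, by -0.07 ± 0.05. With that measure Pex11a differed by -0.43 ± 0.21 and Amacr by -0.29 ± 0.16. None of these 9 genes had groups that did not overlap.

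The thiolases Acaa1a and Acaa1b catalyse the last step of the peroxisomal cycle. Their shared probe set read 11.75, 11.92, 11.92, 11.93 and 11.96 in vehicle arrays and 12.40, 12.03, 12.13, 12.08 and 12.19 in dosed arrays. Every dosed array was higher than every vehicle array, and the difference was 0.27 ± 0.08. It did not pass (adjusted p = 0.0712), but passed where arrays were centred on their median (0.0497) or weighted (0.0327). It passed in none of the fits that left out 1 array (adjusted p from 0.0555 to 0.164). Which of the paralogues carried the signal cannot be told from this probe set.

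In the mitochondrial group 2 of 13 genes fell in limma, 0 rose (2 were higher at an unadjusted p under 0.05) and 11 did not pass, and 10 were lower by sign. Hadha, whose protein holds the hydratase and the long-chain dehydrogenase of the trifunctional complex, was read at 11.41, 11.57, 11.51, 11.48 and 11.50 in vehicle arrays. The dosed arrays gave 11.15, 11.09, 11.20, 11.17 and 11.24, all of them below every vehicle array. Hadha fell from 11.49 ± 0.06 (SD, n = 5) to 11.17 ± 0.06, by 0.33 on the log2 scale with an SE of 0.06 (1.26-fold lower, adjusted p = 0.00553), and kept its call whichever array was left out (adjusted p from 0.00609 to 0.0199). Of its other probe sets, which are dimmer, 1 gave -0.21 ± 0.08 (adjusted p = 0.184) and 1 gave 0.00 ± 0.06, and the mean of the 3 gave -0.18 (adjusted p = 0.0888). With the GAPDH measure the difference was -0.35 ± 0.10 (adjusted p = 0.116).

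Acadm, the medium-chain acyl-CoA dehydrogenase, was read at 12.71, 12.76, 12.77, 12.69 and 12.63 in vehicle arrays and at 12.45, 12.37, 12.44, 12.47 and 12.50 in dosed arrays. The groups did not overlap here either. Acadm fell from 12.71 ± 0.06 (SD, n = 5) to 12.44 ± 0.05, a difference of -0.27 ± 0.06 (1.2-fold lower, adjusted p = 0.0182). Its adjusted p was 0.0507 without vehicle replicate 3 and 0.0546 without dosed replicate 2, and with the GAPDH measure the difference was -0.36 ± 0.09 (adjusted p = 0.0798).

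Hadhb, the thiolase subunit of the same complex as Hadha, overlapped between groups, at 11.82 to 12.18 in vehicle and 11.79 to 12.01 in dosed arrays. Its difference was -0.07 ± 0.08, with a 95% interval from -0.24 to 0.10. Within arrays, Hadha minus Hadhb shifted by -0.26 ± 0.07 with dosing (exact permutation test, two-sided, p = 0.0159, 0.0397 adjusted over 5 pairs of genes). The groups overlapped (-0.61 to -0.32 in vehicle and -0.85 to -0.59 in dosed arrays). The pairs were chosen after their values were seen and Hadha alone had no overlap, so this p is not separate evidence. The shift of Hadha minus Hadhb was -0.05 with the GAPDH measure in the model, since Hadhb then differed by -0.30 ± 0.10.

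The other acyl-CoA dehydrogenases act on other chain lengths, and none passed. The differences were -0.12 ± 0.09 for Acadl (long chains), -0.08 ± 0.08 for Acadvl (very long chains) and -0.04 ± 0.07 for Acads (short chains). They were -0.22, -0.31 and 0.12 with the GAPDH measure, and none passed. Acadm minus Acadvl shifted by -0.19 ± 0.05 within arrays, with no overlap between the groups, and by -0.05 with the GAPDH measure. The exact permutation p was 0.00794, the smallest that 5 against 5 arrays can give (0.0397 adjusted over the 5 pairs). The pairs were chosen after the values were seen and Acadm alone had no overlap, so this p is not separate evidence. Acadm minus Acads shifted by -0.23 ± 0.08 (adjusted p = 0.0529) and Acadm minus Acadl by -0.14 ± 0.08 (adjusted p = 0.103), by the same exact test.

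The carnitine shuttle brings long chains into mitochondria. Cpt1a, its rate-limiting liver enzyme, was read at 11.97 to 12.28 in vehicle and 12.28 to 12.55 in dosed arrays, so the groups met at their edges. The difference of 0.25 ± 0.08 did not pass (adjusted p = 0.113), nor did that of its other probe set, 0.40 ± 0.18 (adjusted p = 0.301). Slc25a20, the carnitine-acylcarnitine carrier, was 0.25 ± 0.09 higher (adjusted p = 0.187) but -0.09 ± 0.10 with the GAPDH measure, a change of sign. Cpt2, which reforms acyl-CoA inside, differed by 0.10 ± 0.09, and Cpt1a minus Cpt2 shifted by 0.15 ± 0.07 (exact permutation, adjusted p = 0.103). Cpt1b is the muscle form of the enzyme, and its probe set was dim, at the 44.3 percentile of brightness, with a difference of -0.20 ± 0.10.

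Acaa2, the mitochondrial thiolase, differed by -0.06 ± 0.07. Eci1 and Decr1, which prepare unsaturated chains, differed by -0.12 ± 0.10 and -0.02 ± 0.08. They differed by -0.22 ± 0.11 (Acaa2), -0.42 ± 0.14 (Eci1) and -0.21 ± 0.12 (Decr1) with the GAPDH measure, and none passed. All 3 overlapped between the groups.

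**Figure D2:**
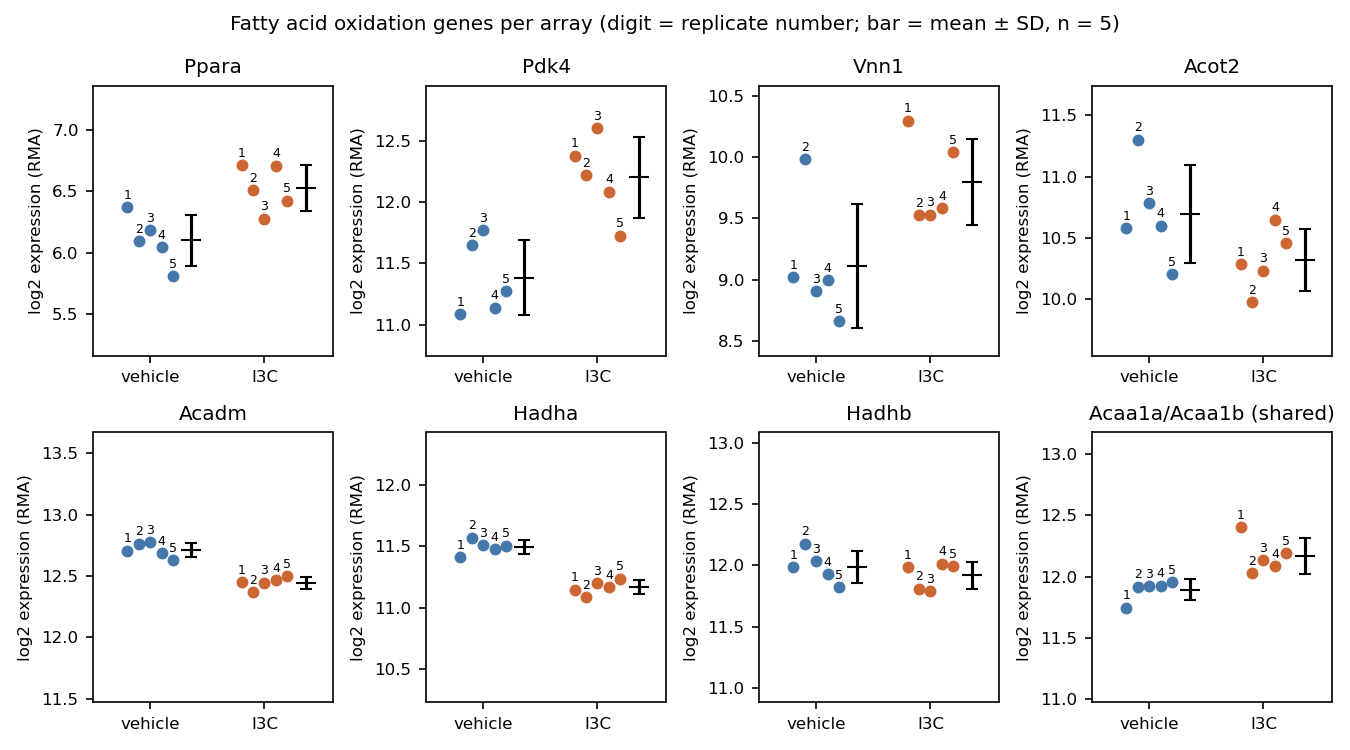
Log2 expression (vertical axis, each panel spanning the same range of log2 units) in each vehicle and dosed array for 7 of the genes and for the shared probe set of Acaa1a and Acaa1b; digits are replicate numbers and bars are mean ± SD of 5. Dosed arrays lie below all vehicle arrays in Acadm and Hadha and above them in the shared probe set, and vehicle replicate 2 stands high in Vnn1, at 9.98.

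Among the 9 genes of acyl-CoA handling, 1 rose in limma, 0 fell (1 was lower at an unadjusted p under 0.05) and 8 did not pass. Pdk4, the kinase that shuts pyruvate dehydrogenase and so spares glucose while fat is burnt, was read at 11.09, 11.65, 11.77, 11.14 and 11.27 in vehicle arrays and at 12.38, 12.22, 12.60, 12.08 and 11.72 in dosed arrays. Only dosed replicate 5 lay within the vehicle range. Pdk4 rose from 11.38 ± 0.31 (SD, n = 5) to 12.20 ± 0.33, by 0.82 ± 0.17 (1.76-fold, adjusted p = 0.0141), and the call held without any single array (adjusted p from 0.00617 to 0.0406). Its other probe set rose by 0.83 ± 0.17 (adjusted p = 0.0128), from 8.51 to 9.19 in vehicle to 9.39 to 10.23 in dosed arrays, with no overlap. With the GAPDH measure the difference was 0.68 ± 0.28 (adjusted p = 0.293).

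Vnn1, a pantetheinase that recycles part of coenzyme A and is a known PPAR alpha target, was 0.68 ± 0.23 higher, which did not pass (adjusted p = 0.124). Its vehicle values were 9.02, 9.98, 8.91, 8.996 and 8.66 and its dosed values 10.30, 9.53, 9.53, 9.58 and 10.04. Vehicle replicate 2 alone overlapped the dosed arrays. Without it the adjusted p was 0.00885, but this array was picked after its value was seen. Vnn1 did not pass in the other 9 fits that left out 1 array (adjusted p up to 0.262). With the GAPDH measure the difference was 0.05 ± 0.31.

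Acot2, a mitochondrial thioesterase that frees fatty acids from coenzyme A, was read at 10.58, 11.30, 10.79, 10.60 and 10.20 in vehicle and at 10.29, 9.98, 10.23, 10.65 and 10.46 in dosed arrays. The groups overlapped, and the difference of -0.37 ± 0.18 did not pass (adjusted p = 0.323). With the GAPDH measure in the model it was -1.06 ± 0.16 and passed (adjusted p = 0.0107). Its other probe sets gave -0.61 ± 0.19 and -0.36 ± 0.12 (adjusted p = 0.099 and 0.135). The related cytosolic Acot1 was near the floor of the array, at the 9.91 percentile of brightness, with a difference of 0.10 ± 0.14, and a probe set that it shares with Acot2 gave -0.20 ± 0.12. Peroxisomal Acot3 differed by -0.17 ± 0.09.

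Plin2 coats lipid droplets, and its probe sets gave different calls. The brightest gave 12.49 to 12.96 in vehicle and 12.30 to 12.61 in dosed arrays, a difference of -0.27 ± 0.10 that did not pass (adjusted p = 0.167). The dimmer gave 8.13, 8.05, 8.24, 8.14 and 8.04 in vehicle and 7.66, 7.49, 7.60, 7.54 and 7.49 in dosed arrays. There all dosed arrays were lower, and the signal fell by 0.56 on the log2 scale with an SE of 0.06 (adjusted p = 0.000308), with -0.61 ± 0.11 in the model with the GAPDH measure (adjusted p = 0.0191). The mean of both probe sets differed by -0.42 (adjusted p = 0.00323), so whether Plin2 is counted as changed rests on the choice of probe set.

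Acsl1, which activates long chains to acyl-CoA, differed by -0.07 ± 0.08, and Fabp1, the liver fatty acid binding protein, by -0.10 ± 0.06 (-0.26 and -0.16 with the GAPDH measure, neither of which passed). Ucp3, a mitochondrial carrier best known from muscle, was read from a probe set at the 60.6 percentile of brightness and differed by -0.08 ± 0.10. Over all 33 genes, 11 had more than 1 probe set of their own. Of those 14 other probe sets, 12 had the sign of the brightest and 2 passed, those of Pdk4 and Plin2.

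The oxidation genes also leaned the same way within single arrays of a group. The arrays described here were picked after their values were seen. Vehicle replicate 2 was the highest vehicle array in 18 of 33 genes, against 22.5% of all genes, and it was above its group mean in 27 of them. Vehicle replicate 5 was the lowest vehicle array in 16 genes, against 32.3% of all genes. The GAPDH measure moved with these arrays: replicate 2 had the lowest GAPDH difference of the vehicle arrays (0.32) and replicate 5 the highest (0.65). The beta-actin measure did not: replicate 5 had the lowest difference (1.45), replicate 2 was at 1.51 and replicate 4 was highest (1.74). Across the roles, replicate 2 was highest in 6 of 10 peroxisomal, 8 of 13 mitochondrial and 4 of 9 acyl-CoA handling genes.

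Among the dosed rats, replicate 2 was the lowest array in 16 of 33 genes, against 17.7% of all genes, and was above its group mean in only 2, Cpt1b and Pdk4. It had the highest GAPDH difference of the dosed arrays (0.29) and also the highest beta-actin difference (1.53). Replicate 5 was the highest in 14, against 16.8% of all genes, with a GAPDH difference of 0.24. The part of RNA quality in this spread was not tested. Measured as the median deviation of the 33 genes from their group mean, the arrays ran from -0.09 in vehicle 5 to 0.12 in vehicle 2 and from -0.08 in dosed 2 to 0.07 in dosed 5. Over all genes the median deviation of those 4 arrays was at most 0.02 in size. The largest of these deviations, 0.12, was as large as the median size of the dose difference of these genes.

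**Figure D3:**
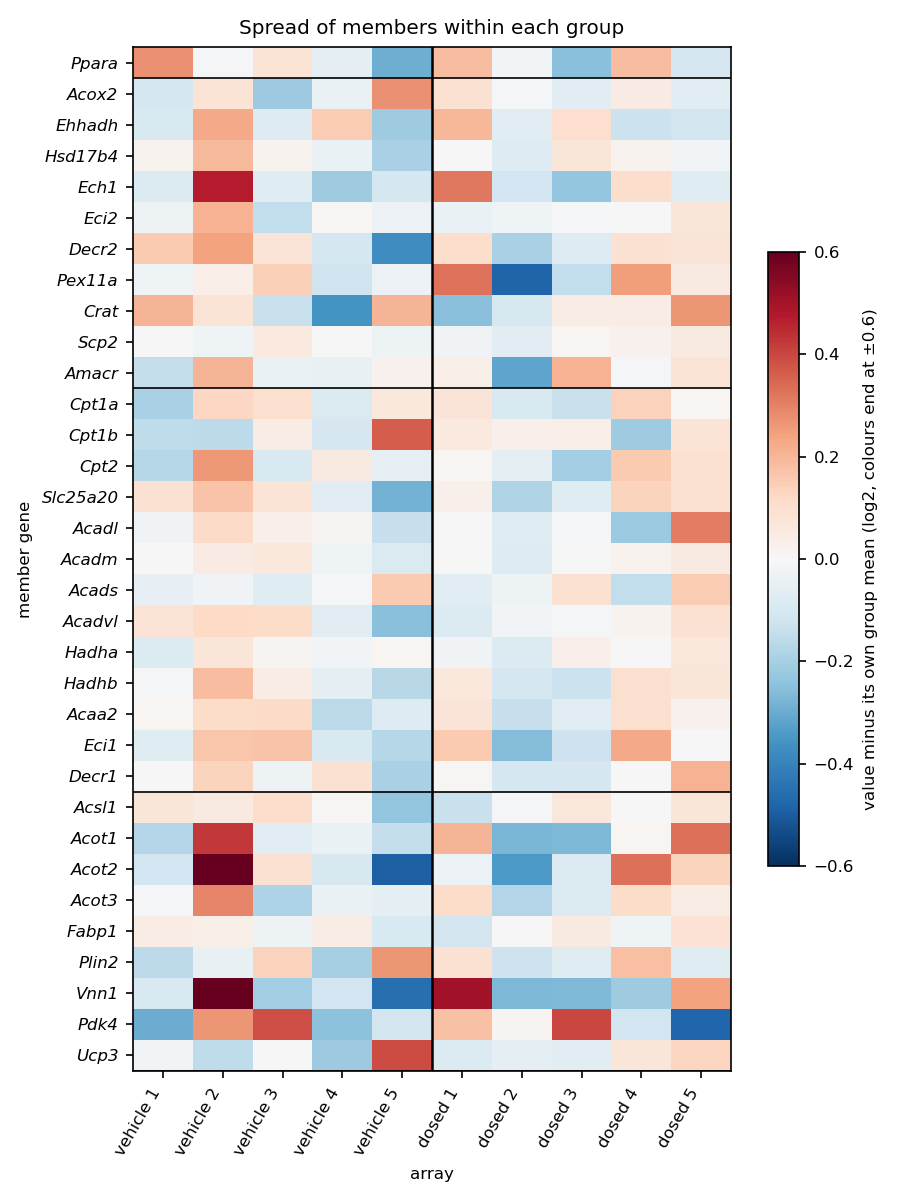
Each value minus the mean of its own group (log2, colour) for the 33 genes, in role order, in 5 vehicle and 5 dosed arrays. The column of vehicle replicate 2 is mostly red and those of vehicle replicate 5 and dosed replicate 2 mostly blue, so the genes of a column lean the same way.

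Other genes of the pathway were taken from 5 lists of 118 genes, of which 109 were measured: 7 rose, 7 fell and 95 did not pass, 12.8% changed beside the 6.43% of all genes. Their median difference was 0.01, and 59 were higher and 50 lower by sign. The other 9 genes were not analysed here.

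Of 25 other peroxisomal genes only Hacl1, a lyase of branched and hydroxylated chains, passed, and it fell (-0.51 ± 0.12, adjusted p = 0.0266). Of 19 other mitochondrial genes, Acad9, an acyl-CoA dehydrogenase that also assembles respiratory complex I, rose by 0.52 ± 0.08 (adjusted p = 0.00191). Slc25a29, a carrier of basic amino acids, rose by 0.46 ± 0.10 (adjusted p = 0.0159). Hadh, the dehydrogenase for short and medium chains, fell (-0.31 ± 0.07, adjusted p = 0.0198), next to the falls of Acadm and Hadha. Of the 4 measured ketone body enzymes 0 passed in limma (1 was lower at an unadjusted p under 0.05), with the brightest, Acat1 and Bdh1, at -0.12 ± 0.07 and 0.04 ± 0.07. Bdh2, named after its value was seen, differed by -0.40 ± 0.18 (adjusted p = 0.292), by -0.58 ± 0.11 without vehicle replicate 5 (adjusted p = 0.00996) and by -1.06 ± 0.19 with the GAPDH measure (adjusted p = 0.0206). Hacl1 was lost in 6 of the 10 fits that left out 1 array (vehicle 2 or 4, dosed 1, 2, 3 or 5) and Hadh in 2 (vehicle 3 or dosed 5). None of the calls of Hacl1, Acad9, Slc25a29 and Hadh held with the GAPDH measure (adjusted p = 0.177, 0.177, 0.0608 and 0.115).

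Among 37 genes of uptake, activation and lipolysis 3 rose and 2 fell. Fabp5, the epidermal fatty acid binding protein, rose by 1.77 ± 0.26 (adjusted p = 0.00189), from 9.16 to 10.75 in vehicle to 10.96 to 11.68 in dosed arrays. Fabp2, the intestinal form, rose by 0.61 ± 0.15 (adjusted p = 0.0363). Acsm2, a medium-chain acyl-CoA synthetase of mitochondria, fell (-1.03 ± 0.22, adjusted p = 0.0192), as did Slc27a5, which activates bile acids and very long chains (-0.48 ± 0.07, adjusted p = 0.00133). The remaining call was Pnpla2, the triglyceride lipase of lipid droplets (0.42 ± 0.11, adjusted p = 0.0495), named here after its value was seen. Leaving out 1 array lost Fabp2 in 7 of 10 fits (all but vehicle 3, vehicle 5 and dosed 4), Pnpla2 in 8 (all but vehicle 2 and dosed 3) and Acsm2 in 2 (dosed 1 or 4). Fabp5, Fabp2 and Acsm2 passed with the GAPDH measure, and Slc27a5 (adjusted p = 0.0786) and Pnpla2 (0.528) did not.

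Of 24 other PPAR alpha targets and cofactors, 2 rose and 3 fell. Fgf21, the fasting hormone that the liver secretes, rose by 2.56 ± 0.24 (adjusted p = 7.77e-05), from 6.99 to 8.20 in vehicle to 9.65 to 10.67 in dosed arrays. Hilpda, a lipid droplet protein induced by low oxygen, rose by 0.49 ± 0.11 (adjusted p = 0.0215). Angptl4, a secreted inhibitor of lipoprotein lipase, fell (-0.53 ± 0.10, adjusted p = 0.0111), as did the kinase Pdk2 (-0.40 ± 0.10, adjusted p = 0.0482). The remaining call, named after its value was seen, was the fatty acid hydroxylase Cyp4a1, a classical PPAR alpha target, which fell (-0.32 ± 0.08, adjusted p = 0.0482). Leaving out 1 array lost Pdk2 in 8 of 10 fits (all but vehicle 1 and vehicle 5), Cyp4a1 in 8 (all but vehicle 1 and vehicle 3) and Hilpda in 3 (vehicle 1, dosed 1 or dosed 4). Fgf21 rose by 2.81 with the GAPDH measure and the other 4 did not pass (adjusted p = 0.0667 for Angptl4, 0.797 for Pdk2, 0.552 for Hilpda and 0.49 for Cyp4a1). Of all 109 genes 3 rose and 3 fell in that model.

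**Figure D4:**
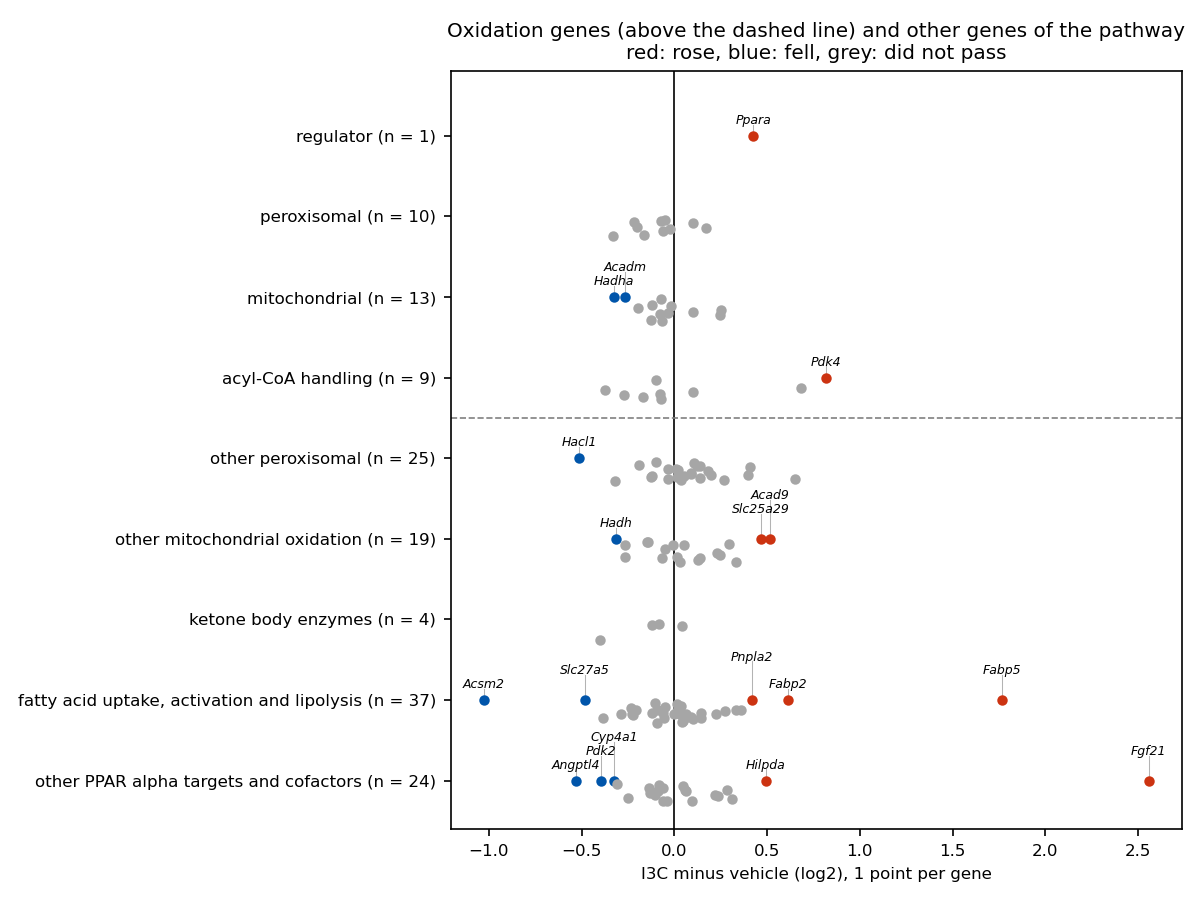
Difference between dosed and vehicle rats (log2, horizontal axis), 1 point per gene, for the 33 oxidation genes by role (above the dashed line) and 109 other genes of the pathway by list. Coloured, named points have adjusted p under 0.05; they lie on both sides of 0 and reach 2.56 for Fgf21 and 1.77 for Fabp5, while the grey points crowd around 0.

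The tissue carried the marks of liver. The 9 hepatocyte markers measured all had probe sets at the 96.8 percentile of brightness or higher, and the 8 skeletal muscle markers, a tissue rich in Cpt1b and Ucp3, were all below the median, at percentiles of 1.15 to 32.4. Of 6 adipocyte markers 4 were below the median, Adipoq at the 13.9 percentile among them, and the highest, Cfd, was at the 83.2 percentile. Markers of Kupffer cells were lower by sign in 8 of 8 genes (1 fell, 7 at an unadjusted p under 0.05). Their summed level did not overlap, at 12.98 to 13.27 in vehicle and 12.50 to 12.90 in dosed arrays, as in 8.67% of all single genes. Sinusoidal endothelial markers were lower by sign in 9 of 9 genes (0 passed, 3 at an unadjusted p under 0.05), and their sum did not overlap either, by a narrow gap (12.785 to 12.95 against 12.59 to 12.780). Of 10 stellate cell markers 8 were lower by sign, Lrat fell (-0.51 ± 0.10, adjusted p = 0.00889) and Rgs5 rose by 1.33 ± 0.18 (adjusted p = 0.000865), and their sum overlapped (11.75 to 12.06 against 11.58 to 11.88). Of the hepatocyte markers Tat rose by 0.93 ± 0.16 (adjusted p = 0.0054) and Apoa1 by 0.38 ± 0.07 (adjusted p = 0.00883), both with all dosed arrays higher, and 7 did not pass. The summed hepatocyte level, which the brightest probe sets dominate, overlapped at 17.04 to 17.09 against 17.005 to 17.12. The part of these shifts in the results above was not tested.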

How the data were processed

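Rat liver RNA was amplified from its 3' ends, labelled and hybridised to 10 Affymetrix arrays, per the labels. The deposited log2 values were made by the authors with RMA (robust multi-array average) as the submitters' processing notes name it; its version is not given in the sources used here. The platform annotation, updated through Entrez IDs to RefSeq symbols (GRCr8), named the probe sets, and the brightest stood for each of 14217 genes. Groups were compared by linear models in limma 3.58.1 under R 4.3.3, with moderated variances and no intensity trend (two-sided, Benjamini-Hochberg over 31042 non-control probe sets, threshold 0.05). The fit was tested on simulated data. Exact permutation tests served for values of which each array has a single one. The text names every measured gene of the list and, from each companion list, at most 4 called genes of largest difference, or the brightest 2 where none was called. The members and lists were chosen with earlier results of these data known. Alternatives were the variance model, replicate block, dim filter, renewed quantile normalisation, median centring, array weights, mean of probe sets, control-gene covariates, a threshold of 0.01 and leaving out each array. The pairs of genes, and the covariate and left-out arrays for other probe sets, were added after seeing the data. The number of arrays limits the precision.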

Additional observations from a re-analysis of the deposited data

Results flagged for a closer look

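In 6 of 66 groups of 5 arrays (33 genes in 2 groups each) 1 array stood apart from the others by Dixon's criterion, where chance gives about 1 in 20 groups. The 66 groups share the same arrays, in which the genes leaned together, so they cannot be set against that rate as independent groups. Vehicle replicate 2 stood high in Ech1 (12.17, next value 11.62), Acot1 (4.49, next 4.03) and Vnn1 (9.98, next 9.02). Vehicle replicate 5 stood high in Acads (10.02, next 9.85) and low in Acsl1 (13.42, next 13.67). Dosed replicate 4 stood low in Cpt1b (5.61, next 5.85). Of these genes, the call changed in Vnn1, which passed without vehicle replicate 2 (adjusted p = 0.00885).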

How the results depend on the processing

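Of the 33 genes, 2 rose and 2 fell as reported. The count that rose was 1 with an intensity trend or array weights, and 0 without moderation, with the GAPDH or the beta-actin covariate, or at a threshold of 0.01. The count that fell was 1 with either covariate and at 0.01. With GAPDH the gene was Acot2 (adjusted p = 0.0107) and with beta-actin it was Hadha (0.0343), so no gene passed with both. The replicate numbers do not pair the samples (correlations of same-numbered deviations from -0.28 to 0.22, and 2 of 5 arrays closest to their own number). With the replicate block 1 of the 33 genes fell, and 4 of the 109 companions rose and 2 fell. Companions, 7 and 7 as reported, rose and fell in 4 and 2 without moderation, 3 and 3 with either covariate, and 3 and 1 at 0.01. Over all genes, 914 as reported became 594 without moderation, 228 with GAPDH, 498 with beta-actin and 437 at 0.01. Leaving out 1 array gave 1 to 2 rises and 1 to 3 falls among the 33, 4 to 9 and 3 to 10 among companions, 651 to 1243 calls over all genes, and a GAPDH difference of -0.25 to -0.17.

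Ehhadh also passed after renewed quantile normalisation (adjusted p = 0.0489) and with array weights (0.0187), and Pdk4 was lost without moderation (0.0828) and with beta-actin (0.0577). Signs turned, in genes that did not pass, with GAPDH for Cpt1b (0.17), Cpt2 (-0.059), Slc25a20 (-0.091), Acads (0.12), Acot1 (-0.20) and Ucp3 (0.21); with beta-actin for Acox2 (-0.027) and Acot1 (-0.0053); with array weights for Acads (0.025); with quantile normalisation for Decr1 (0.0070); and with the mean of probe sets for Ucp3 (0.034). Leaving out 1 array turned the sign of Ech1 (-0.13 to 0.068), Decr2 (-0.11 to 0.039), Acads (-0.075 to 0.0023), Decr1 (-0.069 to 0.016) and Ucp3 (-0.13 to 0.018). The causes were not tested. The identity of paralogous proteins was planned and not run, since no protein table was at hand, and the dim filter gives no value for genes it removes.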
